A study of Mus musculus with 9 samples.

Results

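Chemokines are small secreted proteins that steer leukocytes and some stromal cells by binding G protein-coupled receptors, and they are grouped by the spacing of the first cysteines of the mature protein into CC, CXC and CX3C types. In the arterial wall, endothelial cells, smooth muscle cells, adventitial fibroblasts and resident macrophages all make some of them, and angiotensin II acting on its type 1 receptor is a known inducer of several. The 10 chemokine genes described here are Ccl2, Ccl6, Ccl7, Ccl8, Ccl9, Ccl11, Cxcl1, Cxcl12, Cxcl14 and Cx3cl1. They were chosen by gene symbol, and all 10 were found among the 37668 genes of the deposited table.

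RNA from whole aorta of 9 male mice aged 90 days, on a 129T2SvEmsJ:C57Blk/6J background, was sequenced in 3 groups of 3 libraries. Every mouse carried the floxed AT1ar allele (Agtr1a, the angiotensin II type 1a receptor). The Cdh5Cre group added the Cdh5-Cre transgene, which is aimed at endothelial cells, the Sm22Cre group added Sm22-Cre, which is aimed at smooth muscle cells, and the floxed group carried no Cre. The labels name no fibrillin-1 allele, although the series title names Marfan syndrome. They do not say whether either Cre is inducible. A constitutive Cdh5-Cre also recombines in blood cells, many of which descend from embryonic endothelium, and Sm22-Cre is also active in the developing heart.

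Each value is the authors' FPKM for a whole group (fragments scaled to transcript length and library size), so the 3 libraries had already been combined and there are no replicate values, no errors and no p-values. No difference below could be set against the spread between mice, and the sequencing depth is unknown. Ratios are on log2(FPKM + 1), which shrinks differences of genes near 1 FPKM, while a fold is one FPKM value divided by another. The 14225 genes with at least 1 FPKM in some group serve as the background. Agtr1a itself had 1.32 FPKM in Cdh5Cre aorta and 1.21 FPKM in Sm22Cre aorta, against 1.75 FPKM in floxed. That is a whole-gene value in mixed tissue, so it does not by itself check the deletion in one cell type. Smooth muscle markers were abundant in every group (Myh11, the smooth muscle myosin heavy chain, at 1142 and 1267 FPKM in Cdh5Cre and Sm22Cre, against 1341 in floxed). Defining markers of fat and heart muscle were present too, so the tissue was not smooth muscle alone. In bulk tissue, more cells of a type and more RNA per cell cannot be told apart.

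The coding sequences of the 10 genes show the cysteine spacing that defines the family, and they are printed here because this spacing assigns each gene to its type. Each line gives the bases from GENCODE M21 (build GRCm38) around the first close pair of cysteine codons beyond codon 20, 5′ to 3′, with those cysteine codons in capitals.
Ccl2: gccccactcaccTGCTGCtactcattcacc
Ccl7: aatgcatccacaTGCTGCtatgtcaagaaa
Ccl8: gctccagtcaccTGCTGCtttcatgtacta
Ccl11: atcccaacttccTGCTGCtttatcatgacc
Ccl6: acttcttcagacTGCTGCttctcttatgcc
Ccl9: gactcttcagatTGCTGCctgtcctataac
Cxcl1: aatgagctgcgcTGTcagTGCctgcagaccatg
Cxcl12: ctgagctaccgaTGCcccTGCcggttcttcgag
Cxcl14: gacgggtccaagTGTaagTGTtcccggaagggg
Cx3cl1: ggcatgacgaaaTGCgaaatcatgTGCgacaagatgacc
The 6 Ccl genes have adjacent cysteine codons, the Cxcl genes have 1 codon between them and Cx3cl1 has 3. Ccl6 and Ccl9 differ from the other CC genes in where the pair lies, at codons 50 and 51 in Ccl6 and codons 57 and 58 in Ccl9, against codon 32, 33 or 34 for the first cysteine in Ccl8, Ccl11, Ccl7 and Ccl2. Cx3cl1 is the long member, with 395 codons against 96 to 148 in the others, since its chemokine domain sits on a membrane-bound stalk.

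Cxcl12 was the most abundant of the 10 chemokine genes in every group. Among the other chemokine ligands, the platelet gene Ppbp stood higher in Cdh5Cre, at 153.4 FPKM. Cxcl12, which holds and recruits cells that carry the receptor Cxcr4, was at 110.5 FPKM in Cdh5Cre and 96.4 FPKM in Sm22Cre, against 109.4 FPKM in floxed. That was 59.1%, 61.9% and 67.5% of the summed FPKM of the 10 genes in Cdh5Cre, Sm22Cre and floxed. Its level exceeded that of 95.1% of the analysed genes in floxed aorta. Ccl6, Ccl9, Ccl11 and Cx3cl1 followed, between 8.55 and 19.0 FPKM in all groups, and Ccl8 lay between 2.85 and 3.11 FPKM. Ccl2, Ccl7 and Cxcl1 lay between 0.88 and 2.73 FPKM, and in floxed their levels exceeded only 3.83% (Cxcl1) to 8.17% (Ccl7) of the analysed genes. Cxcl14, an epithelial and stromal chemokine without a settled signalling receptor, reached 0.96 FPKM at most and was the single gene of the 10 below the 1 FPKM minimum, so 9 of 10 were analysed. Cxcl1 was analysed through both Cdh5Cre (1.65 FPKM) and floxed (1.00 FPKM), with 0.88 FPKM in Sm22Cre. The order of levels was the same in Cdh5Cre and Sm22Cre. In floxed, Ccl9 stood just above Ccl6 and Ccl7 just above Ccl2, and whether neighbours in the order differ beyond the spread between mice is not known. The highest of the 10 genes was 114.8 times the lowest in Cdh5Cre and 199.2 times in Sm22Cre, against 143.0 times in floxed.

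**Figure D1:**
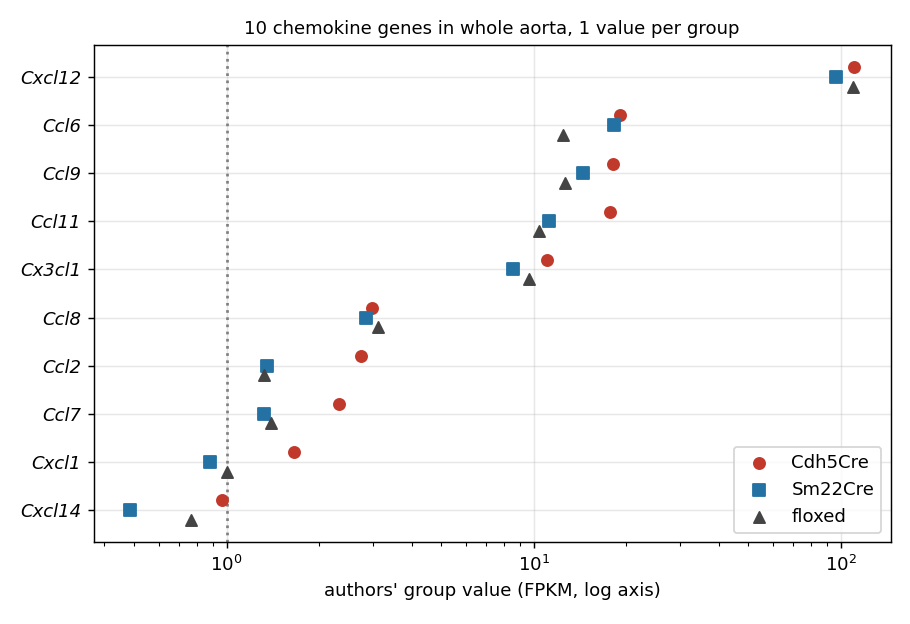
Authors' group value in FPKM (log axis) of the 10 chemokine genes, 1 point per group, with circles for Cdh5Cre, squares for Sm22Cre and triangles for floxed; the dotted line is the 1 FPKM minimum. Cxcl12 lies near 100 FPKM in every group, and the Cdh5Cre point is to the right of the floxed point for every gene but Ccl8.

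The monocyte-attracting chemokines Ccl2 and Ccl7, both ligands of the receptor Ccr2, were higher in Cdh5Cre aorta and about level in Sm22Cre. Ccl2 (ENSMUSG00000035385, mm9 chromosome 11, 81841726 to 81852064) was at 2.73 FPKM in Cdh5Cre and 1.35 FPKM in Sm22Cre, against 1.32 FPKM in floxed. The Cdh5Cre value stood alone above the others, at 2.06 times floxed, and the log2 ratio on the FPKM + 1 scale was 0.68. Ccl7 (ENSMUSG00000035373, 81859214 to 81861027) was at 2.33 FPKM in Cdh5Cre and 1.32 FPKM in Sm22Cre, against 1.39 FPKM in floxed. It showed the same order of Cdh5Cre above the rest, at 1.67 times floxed and a log2 ratio of 0.48. In Sm22Cre against floxed the log2 ratios were 0.02 for Ccl2 and -0.04 for Ccl7. Their receptor Ccr2 was at 1.08 FPKM in Cdh5Cre and 1.09 FPKM in Sm22Cre, against 1.41 FPKM in floxed.

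Ccl11, or eotaxin, which attracts eosinophils through Ccr3 and is made by fibroblasts and smooth muscle cells, was among the higher genes in Cdh5Cre, and level in Sm22Cre. Ccl11 (ENSMUSG00000020676, chromosome 11, 81871325 to 81876457) was at 17.8 FPKM in Cdh5Cre and 11.2 FPKM in Sm22Cre, against 10.4 FPKM in floxed. Cdh5Cre was 1.70 times floxed (log2 ratio 0.71, above the ratio of 95.5% of analysed genes). This was the largest log2 ratio of the 10 genes with a pseudocount of 1, but with a pseudocount of 0.1 it was 0.76 for Ccl11 and 0.99 for Ccl2. In turn, Sm22Cre lay close to floxed, with a log2 ratio of 0.09. Ccr3 itself was listed at 0.03 FPKM or less in every group. By their ratios to floxed in both Cre groups, Ccl2 and Ccl11 lay 0.08 log2 units apart, and so did Ccl7 and Cxcl1, the nearest pairs among the 10. These distances rest on 3 group values and on the pseudocount of 1.

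Ccl8 did not share that pattern. Ccl8, a CC chemokine that in the mouse signals through Ccr8, was at 2.98 FPKM in Cdh5Cre and 2.85 FPKM in Sm22Cre, against 3.11 FPKM in floxed. The 3 values lay close together, with floxed the highest, and the log2 ratios to floxed were -0.05 in Cdh5Cre and -0.10 in Sm22Cre. Ccl8 (ENSMUSG00000009185, chromosome 11, 81928687 to 81930301) belongs to the same cluster as Ccl2, Ccl7 and Ccl11. Along the chromosome the cluster runs Ccl2, Ccl7, Ccl11, Ccl12, Ccl8, with 7.15 kb from Ccl2 to Ccl7, 10.3 kb from Ccl7 to Ccl11, 38.9 kb from Ccl11 to Ccl12 and 11.8 kb from Ccl12 to Ccl8. Ccl12, another ligand of Ccr2, was at 1.58 FPKM in Cdh5Cre and 1.70 FPKM in Sm22Cre, against 1.72 FPKM in floxed; it is named for its place in the cluster, after its values were seen. The 3 genes on the Ccl2 side of the gap before Ccl12 thus had log2 ratios of 0.68, 0.48 and 0.71 in Cdh5Cre against floxed. The pair on the other side had ratios of -0.08 and -0.05. This split was not planned, and Ccl11 alone of these genes lay above 3.11 FPKM. Ccl1, the next ligand 59.9 kb beyond Ccl8, was listed at 0.06 FPKM or less.

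Ccl6 and Ccl9, neighbouring CC chemokines of the mouse that are made by macrophages and other myeloid cells and act on Ccr1, had the highest ratios of the 10 genes in Sm22Cre against floxed and were higher in Cdh5Cre too. Ccl6 (ENSMUSG00000018927, chromosome 11, 83395558 to 83437195) was at 19.0 FPKM in Cdh5Cre and 18.2 FPKM in Sm22Cre, against 12.4 FPKM in floxed. Both Cre groups stood well above floxed and close to each other, at 1.53 and 1.47 times floxed. The Sm22Cre log2 ratio of 0.52 exceeded that of 99.2% of analysed genes. Ccl9 (ENSMUSG00000019122, 83386421 to 83392138), whose locus ends 3.42 kb from that of Ccl6, was at 18.1 FPKM in Cdh5Cre and 14.5 FPKM in Sm22Cre, against 12.6 FPKM in floxed. It followed the same order with a smaller step in Sm22Cre, and its log2 ratios were 0.49 in Cdh5Cre and 0.18 in Sm22Cre. Ccr1 was at 0.64 FPKM in Cdh5Cre and 1.03 FPKM in Sm22Cre, against 0.63 FPKM in floxed. Ccl6 and Cxcl12 were the pair farthest apart in pattern among the 10 genes, at 0.90 log2 units.

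Macrophage markers were nearly level by their median. Of 15 macrophage markers, all analysed and none at 0, 8 were higher in Cdh5Cre than in floxed (median log2 ratio 0.09) and 11 were higher in Sm22Cre (median 0.06). With the trend on transcript length and GC content removed, which is described further on, 3 of the 15 were higher in Cdh5Cre (median -0.11). Their summed level was 279.8 FPKM in Cdh5Cre and 269.2 FPKM in Sm22Cre, against 255.4 FPKM in floxed. C1qa, a complement gene of tissue macrophages, was at 74.1 and 60.6 FPKM in Cdh5Cre and Sm22Cre, against 57.6 FPKM in floxed, and the mannose receptor gene Mrc1 was at 6.56 and 11.9 FPKM, against 11.7 FPKM in floxed. The part of macrophage number in the Ccl6 and Ccl9 values was not tested.

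Cxcl1, the neutrophil attractant that acts on Cxcr2, was at 1.65 FPKM in Cdh5Cre and 0.88 FPKM in Sm22Cre, against 1.00 FPKM in floxed. Cdh5Cre was the high group and Sm22Cre the low one, with log2 ratios to floxed of 0.41 and -0.09. Cxcl1 (ENSMUSG00000029380) lies on chromosome 5 at 91320267 to 91322141. Cxcr2 was at 0.55 FPKM in Cdh5Cre and 0.32 FPKM in Sm22Cre, against 0.11 FPKM in floxed, so it stayed under the 1 FPKM minimum. All 10 neutrophil markers listed, Cxcr2 among them, were higher in each Cre group than in floxed, whatever their level. Their median log2 ratios were 0.44 in Cdh5Cre and 0.22 in Sm22Cre. Of these markers 4 reached 1 FPKM, with Retnlg and Csf3r doing so in Cre groups only and Retnlg in Cdh5Cre alone. The summed level of the 10 was 45.0 FPKM in Cdh5Cre and 13.8 FPKM in Sm22Cre, against 3.99 FPKM in floxed, where 1 marker was at 0. S100a8, an abundant neutrophil protein gene, was at 18.1 FPKM in Cdh5Cre and 4.73 FPKM in Sm22Cre, against 1.15 FPKM in floxed. Their part in the Cxcl1 value was not tested.

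Cxcl12 was about level in Cdh5Cre and slightly lower in Sm22Cre. Cxcl12 (ENSMUSG00000061353, chromosome 6, 117118553 to 117131385) had log2 ratios to floxed of 0.01 in Cdh5Cre and -0.18 in Sm22Cre. The first value turned to -0.17 under quantile normalization of the groups and to -0.0025 with the median of all genes set to 0. The receptor Cxcr4 was at 3.27 FPKM in Cdh5Cre and 2.55 FPKM in Sm22Cre, against 2.11 FPKM in floxed. The scavenger receptor Ackr3, which takes up Cxcl12 and lowers its level around cells, was far more abundant, at 45.6 FPKM in Cdh5Cre and 32.8 FPKM in Sm22Cre, against 27.9 FPKM in floxed. Its log2 ratio in Cdh5Cre against floxed was 0.69, the value for its ligand 0.01. Both receptors were highest in Cdh5Cre and lowest in floxed.

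Cx3cl1, the membrane-bound fractalkine of endothelial and smooth muscle cells, was at 11.0 FPKM in Cdh5Cre and 8.55 FPKM in Sm22Cre, against 9.61 FPKM in floxed. Cdh5Cre lay above and Sm22Cre below floxed, with log2 ratios of 0.18 and -0.15. Its receptor Cx3cr1 was at 1.44 FPKM in Cdh5Cre and 1.17 FPKM in Sm22Cre, against 1.19 FPKM in floxed. The proteases that release fractalkine from the membrane, Adam10 and Adam17, were at 19.1 and 19.5 FPKM in Cdh5Cre and at 24.7 and 21.1 FPKM in Sm22Cre, against 24.3 and 20.2 FPKM in floxed. Cx3cl1 (ENSMUSG00000031778) lies on chromosome 8 at 97295909 to 97306323. Cxcl14 (ENSMUSG00000021508, chromosome 13, 56390008 to 56397912) was at 0.96 FPKM in Cdh5Cre and 0.48 FPKM in Sm22Cre, against 0.77 FPKM in floxed, the same order of groups as Cx3cl1.

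**Figure D2:**
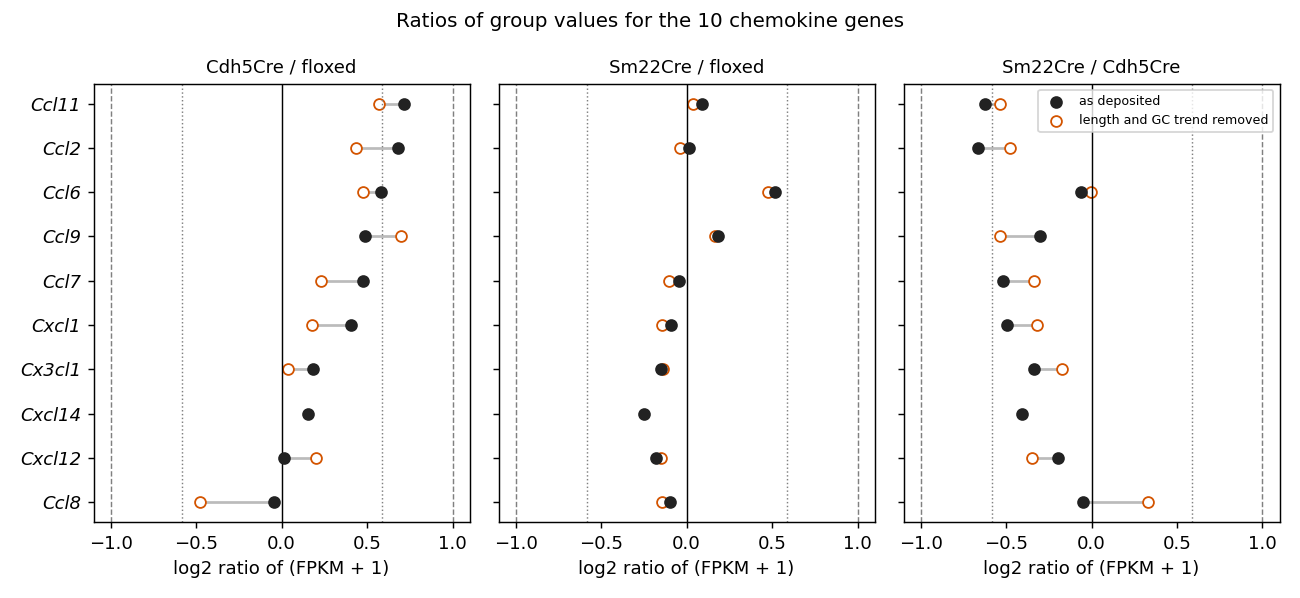
Log2 ratio of (FPKM + 1) for the 10 genes in Cdh5Cre over floxed, Sm22Cre over floxed and Sm22Cre over Cdh5Cre; filled points are the values as deposited and open points have the trend on transcript length and GC content removed (not computed for Cxcl14). Dotted lines mark 1.5-fold and dashed lines 2-fold, and no filled or open point reaches a dashed line.

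Counted together in Cdh5Cre against floxed, 9 of the 10 genes were higher and 1, Ccl8, was lower, with a median log2 ratio of 0.48 over the 9 analysed genes and of 0.02 over all 14225. Of all analysed genes, 51.7% were higher. No chemokine gene of the 10 reached 2-fold on the log2(FPKM + 1) scale, which 1.89% of all analysed genes did in either direction. Ccl2 and Ccl11 reached 1.5-fold higher, as 8.33% of all genes did, and no gene of the 10 reached 1.5-fold lower, as 6.02% of all genes did. The count at 1.5-fold depends on the pseudocount. With 0.5 it was 3, with Ccl6 added, against 9.95% of all genes, and with 0.1 it was 5, with Ccl6, Ccl7 and Cxcl1 added, against 11.7%.

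Transcript length moved with these ratios. Across 12317 genes with a protein-coding transcript, Spearman's rho between the Cdh5Cre against floxed ratio and length was -0.58, and a joint fit on length and GC explained 45.6% of its variance; genes are not independent replicates. Most of the chemokine transcripts are short, with a median of 1261 bases over the 10 genes against 3120 for all analysed genes. Those of Cx3cl1 (3315 bases) and Cxcl12 (5627 bases) are longer than that, and Ccl9 has 3006 bases. Among the 616 genes with the shortest transcripts (median 785 bases) the median log2 ratio was 0.47, close to the 0.48 of Ccl7, whose transcript has 801 bases. With the trend on length and GC content removed, the ratio was 0.44 for Ccl2, 0.23 for Ccl7, 0.57 for Ccl11 and 0.18 for Cxcl1, each smaller than before. It was 0.48 for Ccl6 and 0.03 for Cx3cl1, also smaller, while Ccl9 became larger at 0.70 and Cxcl12 at 0.20. Ccl8, with the shortest transcript at 511 bases, became lower, at -0.47. With the trend removed, 8 of the 9 analysed genes were still higher, with a median of 0.23, against 49.3% of all genes and a median of -0.01. Ccl9 then was the single gene of the 9 past 1.5-fold higher, as 3.08% of genes were, and its value exceeded that of 98.3% of genes. Within the chromosome 11 cluster the trend-removed ratios were 0.44, 0.23 and 0.57 for Ccl2, Ccl7 and Ccl11, against -0.40 for Ccl12 and -0.47 for Ccl8.

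**Figure D3:**
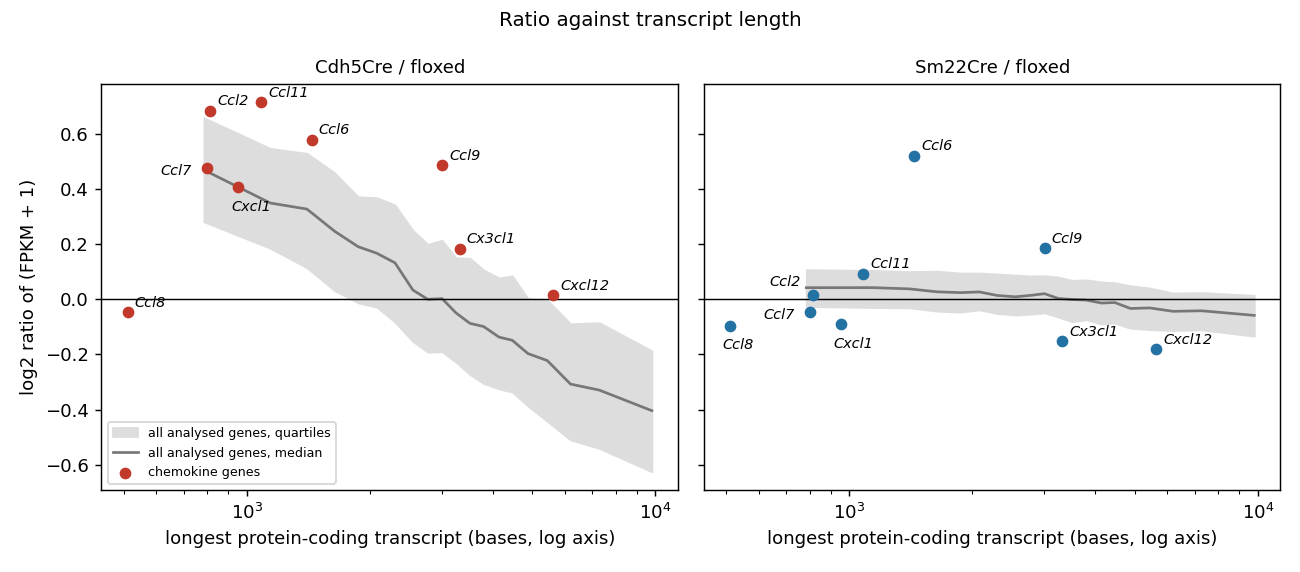
Log2 ratio of (FPKM + 1) against the length of the longest protein-coding transcript (bases, log axis) in Cdh5Cre over floxed and Sm22Cre over floxed; points are the 9 analysed chemokine genes, the line is the median and the band the quartiles of all analysed genes in 20 bins of length. In Cdh5Cre, Ccl2, Ccl11, Ccl6, Ccl9, Cx3cl1 and Cxcl12 lie above the band, Ccl7 and Cxcl1 lie near the line and Ccl8, shorter than the median of the first bin, lies below; in Sm22Cre, Ccl6 and Ccl9 lie above the band, Ccl2 and Ccl11 inside it, and Ccl7, Ccl8, Cxcl1, Cx3cl1 and Cxcl12 below.

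In Sm22Cre against floxed, 4 of the 10 genes were higher, Ccl2, Ccl6, Ccl9 and Ccl11, and 6 were lower, with a median of -0.04 over the 9 analysed genes and of 0.01 over all genes. Of all analysed genes, 52.0% were higher. None of the 10 reached 2-fold, against 0.633% of all genes, and none reached 1.5-fold, against 0.619% of all genes higher and 0.921% lower. The ratios spread less in this comparison than in the first, with an SD over all genes of 0.19 against 0.43. Ccl6 kept its value with the trend on length and GC content removed, at 0.48, and then exceeded 99.5% of genes. Ccl2, at 0.02, turned to -0.04 with the trend removed. Cxcl14 had the lowest ratio, -0.25, from values under 1 FPKM.

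Set directly against each other, Sm22Cre was lower than Cdh5Cre for all 10 genes, with a median of -0.34 over the 9 analysed genes and of -0.01 over all genes, of which 49.1% were higher. This comparison shares its libraries with the other pairs and adds no independent measurement. Ccl2 was at 1.35 FPKM in Sm22Cre against 2.73 FPKM in Cdh5Cre, a log2 ratio of -0.67, and Ccl11 had a ratio of -0.62. On the log2(FPKM + 1) scale these were the genes of the 10 past 1.5-fold lower, as 7.57% of all genes were. None was 1.5-fold higher on that scale, as 4.34% of all genes were, or past 2-fold, as 1.63% were in either direction. Ccl6 differed least along with Ccl8, at -0.06 and -0.05. With a pseudocount of 0.1 or 0.5, Ccl7 and Cxcl1 also passed 1.5-fold lower, which made 4 genes at each, against 10.4% and 8.97% of all genes. With the trend removed none did, against 3.10%, since Ccl2 was then at -0.48 and Ccl11 at -0.53. Ccl8 turned to 0.33, so 1 of the 9 analysed genes was then higher in Sm22Cre.

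Promoters are printed for the 3 genes with the highest Cdh5Cre against floxed ratios among those whose promoter was held, Ccl6, Ccl9 and Cxcl1, and for Cxcl12, which was level there. RefSeq sequences (build GRCm38.p6) from 250 bases before to 50 after the start were held for 7 of the 10 genes, Ccl6, Ccl8, Ccl9, Cxcl1, Cxcl12, Cxcl14 and Cx3cl1. Capitals mark matches on either strand to GGNNTTTCC, a short form of the binding site of NF-kB, the transcription factor through which inflammatory signals induce many chemokine genes.
Ccl6 (chr11:83593038-83593337, minus strand): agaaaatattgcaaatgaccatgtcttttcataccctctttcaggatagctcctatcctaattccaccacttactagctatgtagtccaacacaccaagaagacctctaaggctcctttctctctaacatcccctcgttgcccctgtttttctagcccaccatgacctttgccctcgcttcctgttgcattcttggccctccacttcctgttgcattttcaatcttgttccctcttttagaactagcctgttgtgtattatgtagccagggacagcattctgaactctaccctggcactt
Cxcl1 (chr5:90890995-90891294, plus strand): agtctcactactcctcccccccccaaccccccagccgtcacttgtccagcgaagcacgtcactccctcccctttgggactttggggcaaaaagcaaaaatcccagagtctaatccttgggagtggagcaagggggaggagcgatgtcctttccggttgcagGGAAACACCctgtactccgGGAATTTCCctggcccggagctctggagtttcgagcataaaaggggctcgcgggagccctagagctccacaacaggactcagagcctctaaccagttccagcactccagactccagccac
Ccl9 (chr11:83578587-83578886, minus strand): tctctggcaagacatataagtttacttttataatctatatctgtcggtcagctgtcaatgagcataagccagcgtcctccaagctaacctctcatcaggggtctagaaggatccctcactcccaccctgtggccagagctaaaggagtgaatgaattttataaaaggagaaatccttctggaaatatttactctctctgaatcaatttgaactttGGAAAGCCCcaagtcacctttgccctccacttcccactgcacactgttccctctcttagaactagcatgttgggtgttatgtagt
Cxcl12 (chr6:117168285-117168584, plus strand): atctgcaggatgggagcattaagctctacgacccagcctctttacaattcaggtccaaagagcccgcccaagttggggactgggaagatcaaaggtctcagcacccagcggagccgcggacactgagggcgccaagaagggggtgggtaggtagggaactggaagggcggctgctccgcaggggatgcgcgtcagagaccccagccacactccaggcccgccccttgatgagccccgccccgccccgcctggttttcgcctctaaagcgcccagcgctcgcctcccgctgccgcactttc
Cxcl1 holds 2 matches, whose first bases lie 89 and 70 bases before the start, and Ccl9 holds 1, at 35 bases before it. The other 5 promoters hold none, that of Ccl6 included, and 5.82% of 32851 promoter windows of the same length hold at least 1. TGANTCA, the site of AP-1, was found in Ccl9 alone and in 7.81% of all windows, and TATAAA in Ccl8, Ccl9 and Cx3cl1 and in 13.6% of all windows, both strands searched. TGANTCA reads the same on both strands, and its match in Ccl9 overlaps neither other motif, while 2 of the TATAAA matches there overlap each other. A match of letters is not evidence that a factor binds, and a window without one says nothing of the factor.

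Among the NF-kB feedback and adhesion genes, 14 of 18 listed were higher in Cdh5Cre than in floxed (median 0.11) and 10 of 18 in Sm22Cre (median 0.01). Nfkbia, the inhibitor that NF-kB itself induces, was at 54.8 FPKM in Cdh5Cre and 43.2 FPKM in Sm22Cre, against 35.9 FPKM in floxed. The leukocyte adhesion gene Vcam1 was at 40.8 FPKM in Cdh5Cre and 44.4 FPKM in Sm22Cre, against 38.2 FPKM in floxed. Nfkb1 was at 30.9, 33.1 and 34.3 FPKM in Cdh5Cre, Sm22Cre and floxed, and Nfkbib at 19.7, 15.7 and 16.1 FPKM, both with the authors' status FAIL in every pair. Il1b, the single gene of this list past 2-fold in Cdh5Cre against floxed, was at 1.97 FPKM in Cdh5Cre and 0.62 FPKM in Sm22Cre, against 0.32 FPKM in floxed, so it reached 1 FPKM in Cdh5Cre alone. Of the 14 genes of the list that reached 1 FPKM somewhere, 9 were higher in Cdh5Cre with the trend removed (median 0.13).

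The other chemokine ligands were led by platelet genes. Of 27 such genes listed, 21 were higher and 5 lower in Cdh5Cre than in floxed, with a median of 0.13. The 10 that reached 1 FPKM included 3 that did so only in Cre groups, Ccl5, Ccl25 and Cxcl10. Ppbp, Pf4 and Ccl19 passed 2-fold; with the trend removed Pf4 was at 0.56 and Ccl19 at 0.80. Ppbp and Pf4, platelet chemokines on chromosome 5 near Cxcl1, were together at 208.9 FPKM in Cdh5Cre and 67.1 FPKM in Sm22Cre, against 36.04 FPKM in floxed, more than the 10 genes described here together in Cdh5Cre (187.2 FPKM). Ccl19, which draws T cells and dendritic cells through Ccr7, was at 20.9 FPKM in Cdh5Cre and 6.52 FPKM in Sm22Cre, against 7.49 FPKM in floxed, and its listed locus is shared with 5 other genes. Ccl27a was at 21.9 FPKM in Cdh5Cre and 14.8 FPKM in Sm22Cre, against 14.8 FPKM in floxed, and shares its locus with 6. In Sm22Cre 12 of the 27 were higher and 12 lower than in floxed, with a median of 0.00, and of the 10 genes at 1 FPKM Ppbp alone passed 2-fold. Platelet markers moved with these ligands: 8 of all 9 listed were higher in each Cre group, with medians of 1.35 in Cdh5Cre and 0.25 in Sm22Cre. Of the 9, 3 (Gp1ba, Gp5 and Treml1) reached 1 FPKM in Cdh5Cre alone, and none was at 0. The summed level of the 9 was 102.4 FPKM in Cdh5Cre and 61.2 FPKM in Sm22Cre, against 47.4 FPKM in floxed. Itgb3, the marker that was lower in Cdh5Cre, gave 28.6 and 34.9 FPKM of these sums in Cdh5Cre and Sm22Cre, and 33.6 FPKM in floxed.

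The receptors on leukocytes were low in every group. Of 17 chemokine receptor genes in the list, 10 were higher and 6 lower in Cdh5Cre than in floxed, with a median log2 ratio of 0.01. In Sm22Cre 9 were higher and 7 lower, with a median of 0.01. The 4 that reached 1 FPKM included Ccr1, which did so in Sm22Cre alone. Ccr8 was listed at 0 in both Cre groups and at 0.02 FPKM in floxed. The atypical receptors of the Ackr genes bind chemokines without G protein signalling. Listed with Ccrl2 and Pitpnm3, they were more abundant, summing to 71.6 FPKM in Cdh5Cre and 58.3 FPKM in Sm22Cre, against 55.2 FPKM in floxed. Of the 6 genes listed, 5 were higher in Cdh5Cre (median 0.39), and Ackr1 reached 1 FPKM there alone. Ackr3 made up most of each sum. Pitpnm3, a reported receptor of the human chemokine CCL18, had the authors' status FAIL in both pairs with Cdh5Cre and was lower there, at 8.90 FPKM in Cdh5Cre and 12.7 FPKM in Sm22Cre, against 13.7 FPKM in floxed. Ccrl2, which binds the attractant chemerin, was level, at 7.95 and 7.36 FPKM in Cdh5Cre and Sm22Cre, against 7.87 FPKM in floxed, and Ackr4 (status FAIL against floxed), a scavenger of Ccl19 and its relatives, was at 3.52 and 2.57 FPKM, against 2.90 FPKM. In Sm22Cre 2 of the 6 were higher than in floxed.

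**Figure D4:**
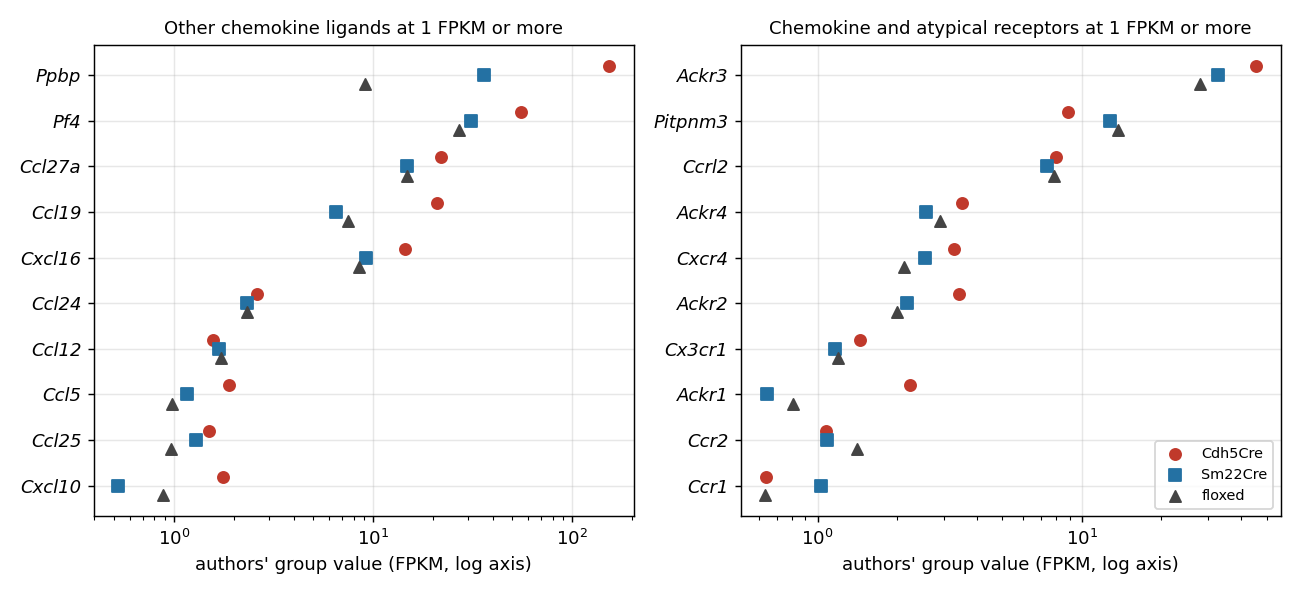
Authors' group value in FPKM (log axis) of the other chemokine ligands and of the listed chemokine and atypical receptors with at least 1 FPKM in some group, with circles for Cdh5Cre, squares for Sm22Cre and triangles for floxed. Ppbp lies at 153.4 FPKM in Cdh5Cre and 9.12 FPKM in floxed, Ackr3 leads the receptors, and Ccr1 and Ccr2 stay at or below 1.41 FPKM.

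Of the proteases that shed or trim chemokines, 6 of 8 were analysed, with a median of 0.02 in Cdh5Cre against floxed and of 0.03 in Sm22Cre. Mmp2, a gelatinase that trims Cxcl12 and Ccl7, was at 103.1 FPKM in Cdh5Cre and 75.5 FPKM in Sm22Cre, against 75.6 FPKM in floxed. Mmp14, its activator, was at 31.6 FPKM in Cdh5Cre and 34.4 FPKM in Sm22Cre, against 32.4 FPKM in floxed.

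Markers of wall cells that make chemokines differed between the groups as well. Of 15 adventitial fibroblast markers, 14 were higher in Cdh5Cre than in floxed, with a median of 0.54. Their summed level was 6487 FPKM in Cdh5Cre and 4291 FPKM in Sm22Cre, against 4476 FPKM in floxed. Gsn, Dcn and Serpinf1, the most abundant of that list, had the authors' status FAIL in each pair. They were at 2099, 1238 and 811.7 FPKM in Cdh5Cre, against 1720, 988.8 and 464.5 FPKM in floxed. Clec3b and Pi16, with the largest ratios of that list, were at 353.9 and 477.8 FPKM in Cdh5Cre and at 151.1 and 219.8 FPKM in Sm22Cre, against 145.3 and 207.1 FPKM in floxed. Of 17 endothelial markers, 15 were higher in Cdh5Cre (median 0.49). Their sums were 653.8 FPKM in Cdh5Cre and 480.4 FPKM in Sm22Cre, against 428.5 FPKM in floxed. Pecam1, the most abundant of the endothelial markers, also had the status FAIL in each pair. Smooth muscle markers had a median of -0.15 in Cdh5Cre, with 3 of 10 higher. Lymphoid markers (11 of 11 listed, median 0.39) and erythroid markers (7 of 7 listed, median 2.54) were higher too. Of the lymphoid markers, 5 reached 1 FPKM, 4 of them in Cdh5Cre alone. The 11 lymphoid markers summed to 29.2 FPKM in Cdh5Cre and 18.0 FPKM in Sm22Cre, against 14.9 FPKM in floxed. Coro1a gave most of each of these sums, at 21.2 FPKM in Cdh5Cre and 13.5 FPKM in Sm22Cre, against 11.8 FPKM in floxed. With the trend removed the Cdh5Cre medians of the genes that reached 1 FPKM were 0.54 for fibroblast, 0.51 for endothelial and -0.11 for smooth muscle markers, where the chemokine genes had 0.23. None of the fibroblast, endothelial, smooth muscle, lymphoid or erythroid markers was listed at 0. In Sm22Cre against floxed the fibroblast median was 0.00, the endothelial median 0.12, the smooth muscle median -0.04, the lymphoid median 0.16 and the erythroid median 1.11, where the 10 chemokine genes had -0.07. Heart muscle markers had medians of 0.57 in Cdh5Cre and -1.17 in Sm22Cre, mesothelial markers 0.25 and -0.34, and adipocyte markers 0.14 and -0.01. With the trend removed, over genes that reached 1 FPKM, the Cdh5Cre medians were 0.25 for heart muscle, 0.21 for mesothelial and -0.03 for adipocyte markers. The part of cell type makeup in the values of the 10 chemokine genes was not tested.

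**Figure D5:**
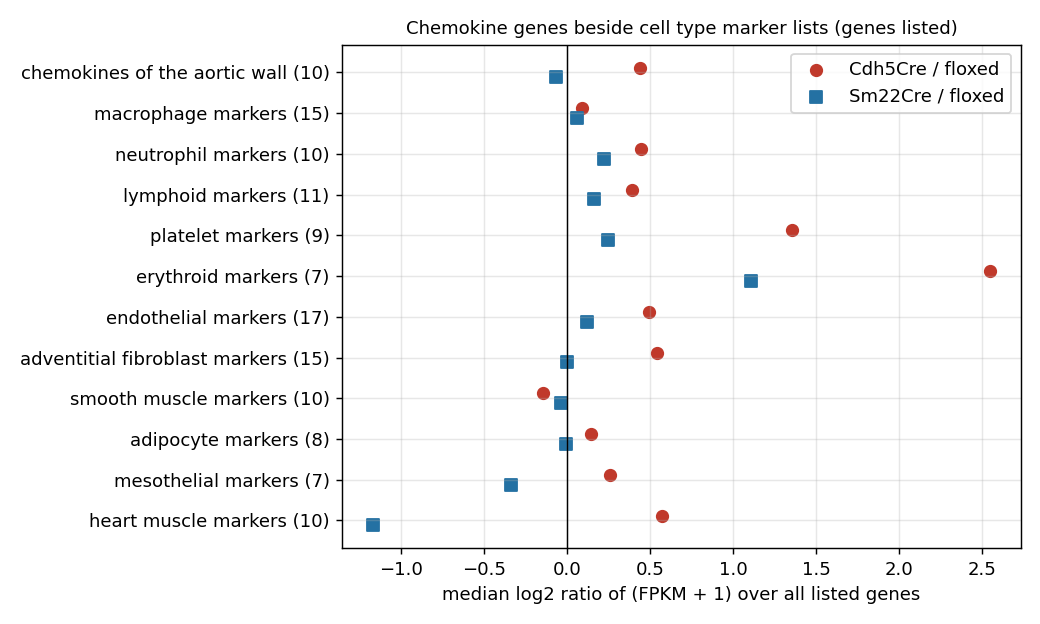
Median log2 ratio of (FPKM + 1) over all listed genes of each list, with no filter on level (their number in brackets), with circles for Cdh5Cre over floxed and squares for Sm22Cre over floxed. The chemokine median in Cdh5Cre is 0.44, as is that of neutrophil markers. Lymphoid markers have 0.39, endothelial 0.49, fibroblast 0.54 and heart muscle markers 0.57. Over the 9 analysed chemokine genes the median is 0.48, and 0.23 with the trend on length and GC content removed. With the trend removed, endothelial and fibroblast markers have 0.51 and 0.54. The macrophage list stays near 0 in both comparisons shown.

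All 10 genes had the status OK in all 3 pairs of groups, while Myh11 and Pi16 had FAIL in each. Ccl2 shares its listed locus with Gm17268, listed at 0, and Ccl6 with E230016K23Rik, at 0.18 FPKM or less, while no other gene's locus overlaps those of the other 8. Of the other genes named, Ccl19, Ccl25, Ccl27a, Cxcl10, Adam17, Mmp14, Il1b, Mrc1, Nfkbib and Ackr4 also share a listed locus with another gene. The chemokine genes are paralogues. The longest exact stretch shared by the longest transcripts of any pair of the 10 was 25 bases, between Ccl6 and Ccl9. The reads have 75 bases. Stretches with mismatches were not compared, nor were other ligands such as Cxcl2 and Cxcl3.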

How the data were processed

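Poly-A RNA from frozen aorta was sequenced as stranded paired-end libraries, per the labels' protocols. Per the submitters' processing notes, Cufflinks 1.3.0, SAMtools 0.1.7, Bowtie2 2.1.0 and TopHat2 2.0.8 were used with build mm9; their roles, options and annotation are not given in the sources used here. The deposited FPKM values are the authors' own, 1 per gene and group, listed in 3 pairs of groups with a status. A group's value differed between pairs for 15 genes, 2 of them analysed. Values came from the pair Sm22Cre and floxed, and for Cdh5Cre from the pair Sm22Cre and Cdh5Cre. The planned fallback was used because no value per library was held: log2(FPKM + 1) ratios, genes with at least 1 FPKM in some group, and a 2-fold rule of size, with no test. Transcript length and GC content came from GENCODE M21, and symbols from a gene name table that matched 32638 of 37668 IDs. The listed loci were counted from 0, so 1 was added to each start. The length and GC trend was a cubic fit on both, with the median fitted level kept, checked on data made with known answers (numpy 2.4.6). Members and lists were chosen with earlier results of these data known, and genes outside the 10 were named where they passed 2-fold, were the known receptor or protease of one of the 10, or led their list by level or change; most markers are given as medians and sums. One gene of the receptor list is not reported here and was left out of its counts and medians.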

Additional observations from a re-analysis of the deposited data

How the results depend on the processing

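On the log2(FPKM + 1) scale the count of chemokine genes past 2-fold was 0 in each of the 3 comparisons. It stayed 0 with a pseudocount of 0.1 or 0.5, although Ccl2 was at 0.99 in Cdh5Cre against floxed with 0.1. As plain FPKM ratios, without a pseudocount, Ccl2 passed 2-fold. Its Cdh5Cre value was 2.06 times floxed and 2.02 times Sm22Cre. The count also stayed 0 with no filter and with a filter at 5 FPKM (which leaves 5 of the 10 genes). The same held under quantile normalization, with the median of all genes set to 0 and with the trend on length and GC content removed. Status OK alone could not change the count, since all 10 genes had that status. With 1.5-fold as the rule of size the count was 2 for Cdh5Cre against floxed and 2 for Sm22Cre against Cdh5Cre, and it was 0 for Sm22Cre against floxed. In settings added after seeing the data, 1.5-fold gave 5 genes for Cdh5Cre against floxed with a pseudocount of 0.1, 3 with 0.5 and 1 with the trend removed, and 4, 4 and 0 for Sm22Cre against Cdh5Cre; it gave 0 for Sm22Cre against floxed in each. The sign of a single gene's ratio can turn under trend removal, quantile normalization or median-setting, and 76 of 81 such ratios kept theirs. Over all settings 27 ratios moved by 0.1 or more without turning, 15 of them under trend removal and 6 under each pseudocount. The 5 that turned were Cxcl12 in Cdh5Cre against floxed under quantile normalization (-0.17) and with the median of all genes set to 0 (-0.0025), Cxcl12 in Sm22Cre against Cdh5Cre under quantile normalization (0.0074), and, with the trend removed, Ccl2 in Sm22Cre against floxed (-0.039) and Ccl8 in Sm22Cre against Cdh5Cre (0.33); the cause was not tested. Leaving out each replicate could not be run on group values, so no result here has a replicate check, and the depth behind the low values of Ccl2, Ccl7, Cxcl1 and Cxcl14 is unknown.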
